A study of Mus musculus with 48 samples.

Results

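The 9 genes described here belong to the tumor necrosis factor (TNF) superfamily and encode costimulatory receptors and ligands of lymphocytes. They were chosen by symbol from the 34932 genes to which the deposited transcripts could be summed. Tnfrsf4 encodes OX40, Tnfrsf9 encodes CD137, Tnfrsf18 encodes GITR, Tnfrsf1b encodes TNFR2 and Cd27 encodes CD27, and these 5 are receptors. Cd40lg encodes CD40 ligand, Tnfsf8 encodes CD30 ligand, Tnfsf14 encodes LIGHT and Ltb encodes lymphotoxin beta, and these 4 are ligands. RNA was sequenced from 12 groups of 4 libraries each. The groups combined 2 genotypes, 3 sorted populations and 2 tissues. The genotypes were wild-type (WT) C57BL/6J mice and Yap-cKO mice, in which loxP-flanked Yap is deleted by Cre driven by the Cd4 promoter and a lox-stop-lox EYFP allele is switched on by the same Cre. The mice were 6 to 10 weeks old, controls were littermates, and every mouse of both genotypes carried a subcutaneous B16F10 melanoma in the flank. This Cre acts from the CD4+CD8+ stage of thymocyte development, so both CD4+ and CD8+ T cells lose the floxed sequence, whereas cells outside the T lineage are not its target. CD4+ cells, CD8+ cells and CD45+CD4-CD8- leukocytes were sorted live from the tumor (tumor-infiltrating leukocytes, TILs) and from the tumor-draining inguinal lymph node (TDLN). The libraries were made from whole sorted populations, so within any group fewer cells of a type and less RNA per cell cannot be told apart.

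Members of the TNF receptor superfamily are type I membrane proteins that are bound by trimeric ligands on a neighbouring cell, and the costimulatory members recruit TRAF adaptors that lead to canonical and noncanonical NF-kappaB signalling. OX40, CD137 and GITR are induced when T cells are activated through the antigen receptor, and OX40, GITR and TNFR2 are known for high levels on regulatory T cells. CD27 is already present on naive T cells and binds CD70. CD40 ligand is induced on helper T cells and licenses B cells, dendritic cells and macrophages through CD40. CD30 ligand binds CD30 (Tnfrsf8), LIGHT binds HVEM (Tnfrsf14) and the lymphotoxin beta receptor (Ltbr), and lymphotoxin beta anchors lymphotoxin alpha (Lta) at the cell surface as the ligand that shapes lymph node stroma.

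In the GENCODE M21 annotation of GRCm38, 5 of the 9 genes lay on chromosome 4 and 2 on chromosome 17. Tnfrsf4 (ENSMUSG00000029075.6, chr4:156013843-156016612, plus strand) and Tnfrsf18 (ENSMUSG00000041954.18, chr4:156026164-156028895, plus strand) were neighbours, with 9551 bases between the end of the former and the start of the latter. Tnfrsf9 (chr4:150914562-150946102, plus strand), Tnfrsf1b (chr4:145213463-145246870, minus strand) and Tnfsf8 (chr4:63831308-63861347, minus strand) were the others on that chromosome. Ltb (chr17:35194439-35196320, plus strand) and Tnfsf14 (chr17:57189492-57194177, minus strand) were on chromosome 17, Cd27 (chr6:125232622-125237010, minus strand) on chromosome 6 and Cd40lg (chrX:57212143-57224042, plus strand) on the X chromosome. Exons of Tnfrsf18 overlap those of the antisense transcript Gm16008, and it is not known that the counts use strand, so reads of these 2 genes may not be separable.

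Promoter sequence from RefSeq (GRCm38.p6) was at hand for 8 of the 9 genes, in 9 windows of 250 bases before a transcription start, since Tnfrsf9 has 2. Each window was searched on both strands for a kappaB motif (GGG and TCC on the same strand with any 4 bases between them), an AP-1 motif (TGANTCA) and the TEAD motif (GGAATG). NF-kappaB and AP-1 act downstream of antigen receptor and TNF receptor signalling, and TEAD factors are the DNA-binding partners of Yap. Of the 32851 promoter windows of the same length in that RefSeq set, 16.5% held the kappaB motif, 6.75% the AP-1 motif and 12.6% the TEAD motif. The windows of Tnfrsf4, Tnfrsf18, Cd27 and Tnfsf8 and the upstream window of Tnfrsf9 held none of these letters. The stretches with a match follow, each read along the strand of its gene with the match in capitals. They are shown because these genes are the ones whose promoter windows carry letters of the pathways named above, and a match in letters is not a measured binding site.
Tnfrsf9, kappaB, chr4:150927946-150927975: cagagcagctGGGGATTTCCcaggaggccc
Tnfrsf9, AP-1, chr4:150927969-150927998: gaggccctgctcagtTGAGTCAcaggtcct
Ltb, kappaB on the opposite strand, chr17:35194410-35194439: aagggtgttcGGAAAGTCCCcgggcagggg
Tnfsf14, AP-1, chr17:57194323-57194352: tccatcccaccTGAGTCAcattttctggaa
Tnfrsf1b, TEAD on the opposite strand, chr4:145246915-145246944: cgcggccccgccCATTCCcgccctcccccc
Tnfrsf1b, TEAD on the opposite strand, chr4:145247036-145247065: tagaagcgcattCATTCCcggaagagatgc

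The kappaB and AP-1 matches of Tnfrsf9 lay at 43 to 34 and 15 to 9 bases before the downstream start, from which transcript Tnfrsf9-205 is read. The kappaB match of Ltb lay at 87 to 78 bases, the AP-1 match of Tnfsf14 at 160 to 154 bases, and the TEAD matches of Tnfrsf1b at 62 to 57 and 183 to 178 bases before the RefSeq start.

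The 48 libraries held between 12656302 and 24213689 expected counts on genes (median 17870047), so 3 counts corresponded to 0.124 to 0.237 CPM, the count scaled to a fixed library total. The sort labels held in every library: Cd4 was at 96.3 to 1085 CPM in CD4+ groups and 0.275 to 5.88 CPM in CD8+ groups, and Cd8a was at 203 to 1290 CPM in CD8+ groups and 0.324 to 7.53 CPM in CD4+ groups. In CD45+CD4-CD8- libraries Cd4 was at 3.60 to 50.7 CPM and Cd8a at 2.97 to 11.1 CPM. Yap1, the targeted gene, was at 14.2 to 25.4 CPM in WT and 1.70 to 5.70 CPM in Yap-cKO CD4+ TILs, but at 1.29 to 2.13 and 1.42 to 2.41 CPM in CD4+ cells of the TDLN, so it separated the genotypes in the tumor and not in the lymph node. CD8+ cells gave 12.6 to 25.2 against 2.43 to 6.48 CPM in TILs and overlapped in the TDLN. Yap1 was also lower in every Yap-cKO library of CD45+CD4-CD8- TILs, at 1.48 to 2.09 CPM against 2.80 to 5.40 CPM in WT, although it was not called there. Y-linked Ddx3y and Eif2s3y were read in WT replicates 1 to 3 of every population (summed 24.9 to 311 CPM, 18 libraries) and were at or below 0.656 CPM in every other library, WT replicate 4 included, so sex and genotype are confounded except through that 1 WT replicate. The summed level of 7 melanoma genes was 5369 to 16396 CPM in WT and 175 to 2354 CPM in Yap-cKO CD4+ TILs, 3752 to 13301 and 41.7 to 2548 CPM in CD8+ TILs, and 1099 to 1811 and 123 to 517 CPM in CD45+CD4-CD8- TILs. All 7 were detected in every one of these groups. The part of RNA from melanoma cells in the Yap1 values of TILs was not tested.

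The levels of the 9 genes across the 12 groups are given first. Levels are CPM with trimmed mean of M values (TMM) factors over all libraries, and means are ± SD with n = 4. The highest mean was in Yap-cKO CD4+ TILs for 5 genes: Tnfrsf4, Tnfrsf9, Tnfrsf18, Tnfsf8 and Ltb. Tnfrsf1b was highest in CD8+ cells of the WT TDLN, Cd27 in CD4+ cells of the WT TDLN, Cd40lg in CD4+ cells of the Yap-cKO TDLN and Tnfsf14 in CD45+CD4-CD8- cells of the Yap-cKO tumor. When each gene's groups were put in order of their means, only 11 of 99 neighbouring pairs of groups did not overlap, so most steps in these orders were within the spread between libraries.

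Cd40lg separated the CD4+ groups from the others. Its mean was 52.5 CPM in WT CD4+ TILs, the lowest of the CD4+ groups, against 5.30 ± 1.60 CPM in Yap-cKO CD8+ TILs, the highest of the others. In CD45+CD4-CD8- cells Cd40lg lay between 0 and 0.907 CPM, near or below the level of 3 counts in most libraries. Tnfsf14 ran the other way. It was at 12.01 to 18.4 CPM in WT and 12.7 to 26.1 CPM in Yap-cKO CD45+CD4-CD8- TILs, and at 0.107 to 9.87 CPM in every T cell library. Tnfrsf1b, whose product TNFR2 is widespread on leukocytes, had no neighbouring pair of groups without overlap.

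Per transcript length, in summed TPM, the length-scaled unit of Salmon, Ltb had the highest mean of the 9 genes in WT CD4+ cells of both tissues, at 884 TPM in the TDLN and 702 TPM in the tumor. In Yap-cKO CD4+ TILs the order of mean levels was Tnfrsf4 (1691 TPM), Tnfrsf18 (1479), Ltb (1415), Tnfrsf9 (1131), Tnfrsf1b (278), Cd27 (238), Cd40lg (132), Tnfsf8 (23.4) and Tnfsf14 (5.79). In Yap-cKO CD8+ TILs Ltb led at 697 TPM, followed by Tnfrsf9 (360), Tnfrsf18 (353) and Cd27 (325), while Tnfrsf4 was at 107 TPM. Among CD45+CD4-CD8- TILs Tnfrsf1b had the highest mean, 163 TPM in WT and 267 TPM in Yap-cKO mice.

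**Figure D1:**
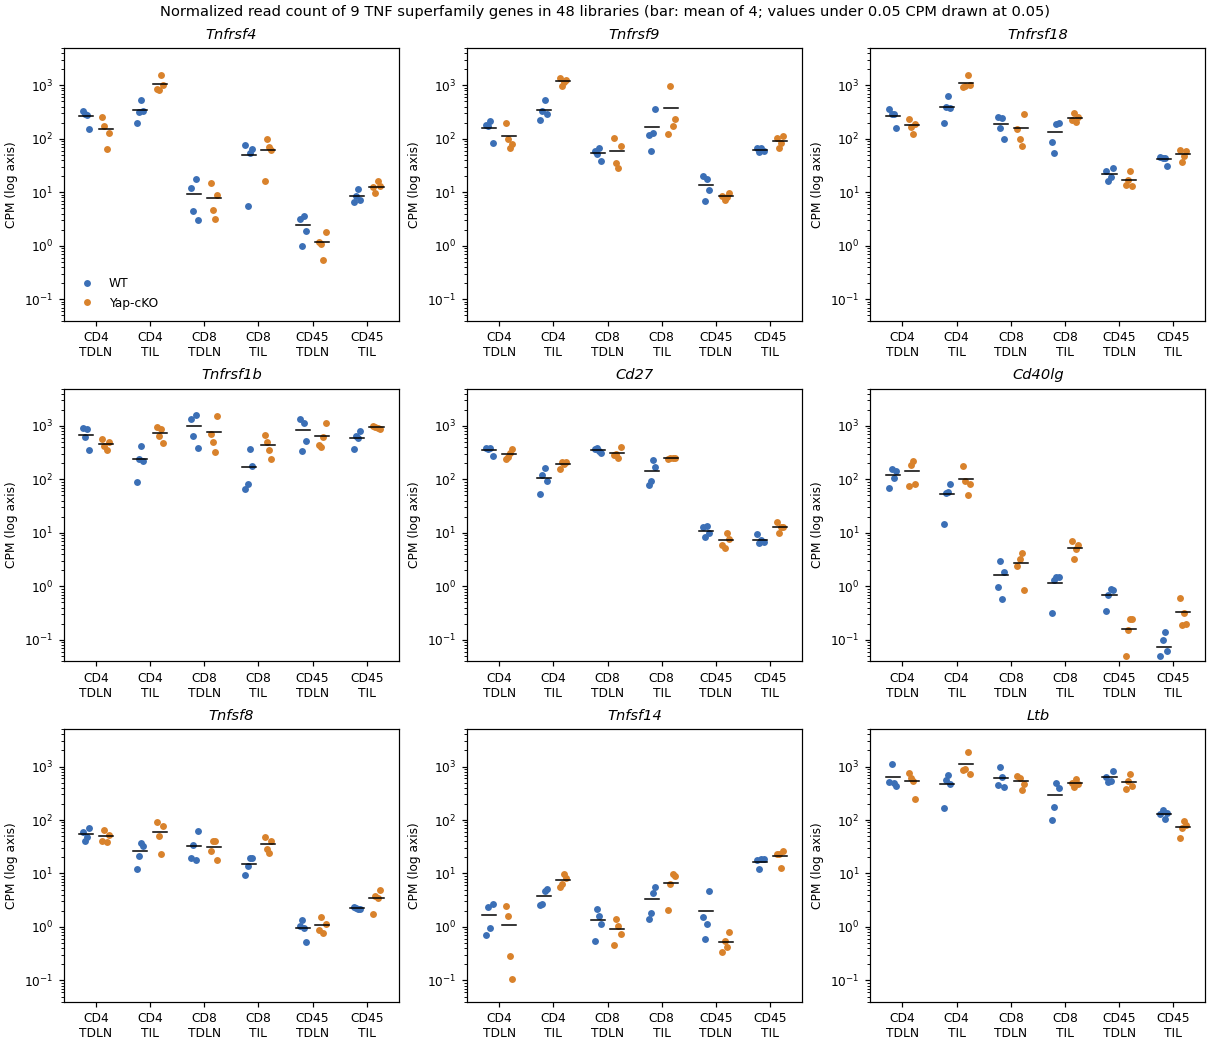
Normalized read count of the 9 genes in every library, with the 12 groups along the horizontal axis and CPM on a log axis; each point is 1 library and each bar the mean of 4. Cd40lg separates CD4+ groups from all others, Tnfsf14 is highest in CD45+CD4-CD8- TILs, and the 4 Yap-cKO CD4+ TIL libraries lie at 817 to 1542 CPM for Tnfrsf4 against 201 to 530 CPM in WT.

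The first comparison asked how the 9 genes differ in CD4+ TILs between Yap-cKO and WT mice. All 9 had a positive log2 fold change, and 4 passed the test. Passing required a log2 fold change beyond 1 in either direction together with an adjusted p below 0.05 (edgeR quasi-likelihood test, Benjamini-Hochberg adjustment over all tested genes). Among all genes tested 1.36% were called higher. The 4 were the receptors Tnfrsf4, Tnfrsf9, Tnfrsf18 and Tnfrsf1b. The median log2 fold change of the 9 genes was 1.22, against 0.14 over all genes and 0.95 over 15 T-lineage genes such as Cd3e and Lck, none of which passed the test.

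Tnfrsf9, which encodes CD137, was at 223, 326, 530 and 285 CPM in the 4 WT libraries and at 1390, 951, 1165 and 1264 CPM in the 4 Yap-cKO libraries. Every Yap-cKO library lay above every WT library, and the log2 fold change was 1.80 ± 0.342 (SE, adjusted p = 0.0134 by edgeR). Tnfrsf4, which encodes OX40, was at 201, 316, 530 and 330 CPM in WT libraries against 848, 817, 1542 and 1028 CPM in Yap-cKO libraries. The groups again did not overlap, and the log2 fold change was 1.62 ± 0.386 (SE, adjusted p = 0.0283 by edgeR). Tnfrsf18, which encodes GITR, was at 199, 397, 619 and 375 CPM against 927, 951, 1552 and 1005 CPM, with replicate 3 the highest in both genotypes (log2 fold change 1.48 ± 0.391 SE, adjusted p = 0.042 by edgeR). Tnfrsf1b, which encodes TNFR2, was at 88.0, 244, 414 and 217 CPM against 968, 656, 890 and 486 CPM, and the lowest Yap-cKO library lay just above the highest WT library (log2 fold change 1.63 ± 0.448 SE, adjusted p = 0.049 by edgeR). Cd27, the receptor that resting T cells already carry, did not pass the test at 53.9, 119, 165 and 93.5 CPM in WT libraries against 158, 211, 195 and 208 CPM in Yap-cKO libraries, where the groups overlapped by 1 WT library (log2 fold change 0.83 ± 0.348 SE, adjusted p = 0.169).

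None of the 4 ligands passed the test in CD4+ TILs. Ltb was at 167, 570, 687 and 471 CPM in WT libraries against 874, 903, 1894 and 727 CPM in Yap-cKO libraries, without overlap (log2 fold change 1.22 ± 0.478 SE, adjusted p = 0.146 by edgeR). Tnfsf14 was low but separated the genotypes, at 2.54 to 5.13 CPM in WT and 5.64 to 9.68 CPM in Yap-cKO libraries (log2 fold change 1.00, adjusted p = 0.159 by edgeR). Tnfsf8 (12.2 to 37.6 against 23.0 to 91.7 CPM, log2 fold change 1.19, adjusted p = 0.143) and Cd40lg (14.7 to 82.1 against 50.6 to 175 CPM, log2 fold change 0.89, adjusted p = 0.295) overlapped between genotypes. In all, 6 of the 9 genes had every Yap-cKO library above every WT library, against 6.09% of all genes tested.

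Levels of T cell genes moved with genotype in these libraries. The summed level of the 15 T-lineage genes was 1518 to 6186 CPM (median 4422) in WT and 6863 to 11113 CPM (median 7365) in Yap-cKO CD4+ TILs. When the libraries were scaled to these 15 genes instead, the median log2 fold change of all genes moved to -1.15, the calls over all genes moved from 193 higher and 946 lower to 17 higher and 3553 lower, and none of the 9 genes was called. The 4 receptors then stood at 0.71 for Tnfrsf9 (adjusted p = 0.242 by edgeR), 0.69 for Tnfrsf1b (adjusted p = 0.22), 0.50 for Tnfrsf4 (adjusted p = 0.379) and 0.41 for Tnfrsf18 (adjusted p = 0.454), Cd27 and Tnfsf14 turned negative at -0.17 and -0.16, and the median of the 9 was 0.30. Genes of regulatory T cells also moved with genotype. The sum of Foxp3, Ikzf2, Il2ra and Ctla4 was 273 to 677 CPM in WT and 750 to 2548 CPM in Yap-cKO libraries, and Foxp3 alone was at 75.5 to 244 and 403 to 602 CPM. Each of the 4 leaned toward Yap-cKO (median log2 fold change 1.69), and 1 was called. The part of the regulatory T cell genes, and that of the melanoma genes listed above, in the difference of the receptors was not tested. Tnfrsf9 was called in 7 of 8 fits that each left out 1 library, and was lost without WT replicate 2 (adjusted p = 0.0579 by edgeR, log2 fold change 1.58 to 1.99 over the 8 fits). Tnfrsf4 was called in 3 of the 8 fits, and Tnfrsf18 and Tnfrsf1b in 2 each, so that the number of members called ran from 0 without WT replicate 2 to 5 without Yap-cKO replicate 3. With the presence of Y-linked counts as a term in the fit, an alternative chosen after the data were seen, the genotype difference rests on the single WT library without them. None of the 9 genes was then called (2 at an unadjusted p under 0.05) and only 2 of all genes were, with Tnfrsf4 at 1.63, Tnfrsf9 at 2.00, Tnfrsf18 at 1.52 and Tnfrsf1b at 1.72 (adjusted p = 0.341 to 0.744 by edgeR).

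In CD8+ TILs the 2 genes that passed the test were ligands, with 3.03% of all tested genes called higher. Cd40lg, best known from helper T cells, was at 0.320, 1.32, 1.497 and 1.48 CPM in WT libraries against 7.12, 3.31, 4.91 and 5.84 CPM in Yap-cKO libraries. The genotypes did not overlap (log2 fold change 2.11 ± 0.512 SE, adjusted p = 0.0286 by edgeR), though the Yap-cKO mean of 5.30 ± 1.60 CPM was far below the 100 CPM of CD4+ TILs from the same mice. Tnfsf8, which encodes CD30 ligand, was at 9.29, 13.5, 19.3 and 19.1 CPM in WT libraries against 49.1, 28.8, 23.9 and 41.3 CPM in Yap-cKO libraries, also without overlap (log2 fold change 1.15 ± 0.317 SE, adjusted p = 0.0413 by edgeR). Over all genes tested 8.18% had every Yap-cKO library above every WT library.

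The receptors that passed in CD4+ TILs did not pass in CD8+ TILs. Tnfrsf1b was at 65.1, 82.7, 365 and 175 CPM against 684, 505, 360 and 238 CPM (log2 fold change 1.29, adjusted p = 0.117 by edgeR). Tnfrsf9 was at 119, 59.4, 128 and 354 CPM in WT libraries against 122, 972, 170 and 230 CPM in Yap-cKO libraries, and the single library at 972 CPM set the Yap-cKO mean apart. The log2 fold change of Tnfrsf9 was 1.09 (adjusted p = 0.292 by edgeR), and 0.018 without that library. Tnfrsf18 was at 54.2 to 196 against 206 to 302 CPM (log2 fold change 0.83, adjusted p = 0.154 by edgeR). Cd27 was at 80.2 to 235 against 242 to 256 CPM (log2 fold change 0.71, adjusted p = 0.15). Both had every Yap-cKO library above every WT library, as had 8.18% of all genes tested. Tnfrsf4 overlapped fully, at 5.63 to 75.6 and 16.1 to 98.7 CPM (log2 fold change 0.22, adjusted p = 0.843), and its sign turned with the omission of replicate 2 of either genotype. Ltb (log2 fold change 0.68, adjusted p = 0.28) and Tnfsf14 (0.97, adjusted p = 0.259) did not pass either.

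All 9 genes nonetheless had a positive log2 fold change in CD8+ TILs, with a median of 0.97 against 0.08 over all genes and 0.87 over the T-lineage genes. The summed T-lineage level was 1697 to 5354 CPM in WT and 6138 to 7226 CPM in Yap-cKO libraries. Scaled to those genes, Cd40lg stood at 1.10 (adjusted p = 0.149 by edgeR) and Tnfsf8 at 0.09 (adjusted p = 0.873), the signs of Tnfrsf4, Tnfrsf18, Cd27 and Ltb turned negative, and the calls over all genes moved from 428 higher and 1291 lower to 6 higher and 5715 lower around a median of -1.12. Genes of macrophages and monocytes (6 of 6 detected) summed to 215 to 599 CPM in WT and 538 to 1586 CPM in Yap-cKO CD8+ TILs, and their part in the difference of Cd40lg and Tnfsf8 was not tested. Genes of CD4+ cells moved with genotype in these libraries too. Cd4 was at 0.275 to 1.44 CPM in WT and 2.69 to 5.88 CPM in Yap-cKO CD8+ TILs, without overlap, and Foxp3 at 0.256 to 4.55 and 0.405 to 15.6 CPM. The sum of the 4 regulatory T cell genes was 81.0 to 211 and 191 to 449 CPM, and the part of any of these in the Cd40lg values was not tested. Both calls were held in 2 of 8 fits that left out 1 library, with adjusted p up to 0.0664 for Cd40lg and 0.101 for Tnfsf8 (edgeR). The number of members called ran from 0 to 4, the latter without WT replicate 3. With Y-linked counts as a term neither gene was called, and 1 of all genes was, with Cd40lg at 1.76 (adjusted p = 0.33 by edgeR), Tnfsf8 at 0.84 (adjusted p = 0.416) and Tnfrsf4 at -0.12.

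CD45+CD4-CD8- TILs were sorted without CD4+ and CD8+ cells, and cells outside the T lineage are not the target of this Cre. The 15 T-lineage genes still summed to 202 to 236 CPM in WT and 202 to 251 CPM in Yap-cKO CD45+CD4-CD8- TILs. Whether any of these cells had lost Yap was not tested. Of the 9 genes 8 could be tested there, since Cd40lg stayed near 0, and 0 were called by edgeR or by DESeq2, while 5 had an unadjusted p under 0.05. Among all tested genes 0.991% were called in either direction by edgeR and 527 of 13628 by DESeq2. Of the 8 tested members 7 had a positive log2 fold change and Ltb a negative one. Their median was 0.56, against 0.01 over all genes and 0.36 over the T-lineage genes. Ltb was at 130, 154, 106 and 134 CPM in WT libraries against 45.4, 69.6, 96.1 and 80.6 CPM in Yap-cKO libraries, where every Yap-cKO library lay below every WT library (log2 fold change -0.86 ± 0.217 SE, adjusted p = 0.0825 by edgeR). B cell genes, in cells that are a known source of lymphotoxin beta, summed to 822 to 1661 CPM in WT and 196 to 805 CPM in Yap-cKO libraries, with all 6 detected, and their part in the Ltb values was not tested. Cd27 lay at 6.57 to 9.42 CPM in WT and 10.001 to 15.7 CPM in Yap-cKO libraries (log2 fold change 0.78 ± 0.219 SE, adjusted p = 0.113). Tnfrsf1b lay at 363 to 802 CPM against 877 to 999 CPM (log2 fold change 0.64 ± 0.212 SE, adjusted p = 0.161). These 2 genes were above WT in every Yap-cKO library, as were 4.12% of all genes tested, and Ltb was below in every one, as were 7.37%.

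In the TDLN no member passed the test in any population, where 0.0462% of all genes were called in CD4+ cells, 0.0158% in CD8+ cells and 0.0596% in CD45+CD4-CD8- cells. Counts were 0 by edgeR and by DESeq2 in all 3, and at an unadjusted p under 0.05 they were 0, 0 and 1. That 1 was Tnfsf14 in CD45+CD4-CD8- cells (log2 fold change -1.82, adjusted p = 0.998 by edgeR), at 0.594 to 4.63 CPM in WT and 0.346 to 0.793 CPM in Yap-cKO libraries. In CD4+ cells the log2 fold changes ran from -0.75 for Tnfrsf4 to 0.28 for Cd40lg with a median of -0.52. Tnfrsf4 itself was at 332, 287, 284 and 151 CPM in WT libraries against 256, 170, 64.8 and 127 CPM in Yap-cKO libraries, with overlap. With Y-linked counts as a term, 7 of 9 members changed sign in CD4+, 4 of 9 in CD8+ and 1 of 8 in CD45+CD4-CD8- cells. That difference rests on the single WT library without Y-linked counts, so the direction in the lymph node is not settled. Every gene tested overlapped between genotypes in the lymph node, 9 in CD4+, 9 in CD8+ and 8 in CD45+CD4-CD8- cells, where Cd40lg (0 to 0.907 CPM) was too low to be tested. Over all tested genes, 1.22%, 0.925% and 1.62% did not overlap in either direction.

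**Figure D2:**
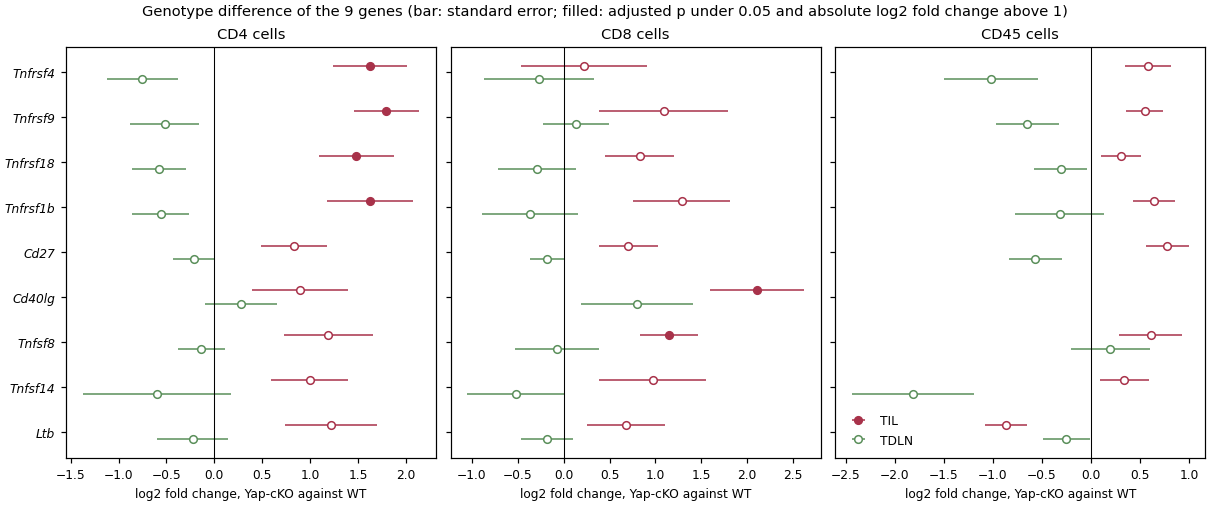
Log2 fold change of the 9 genes between Yap-cKO and WT libraries, in TILs and in the TDLN, with CD4+, CD8+ and CD45+CD4-CD8- cells in separate panels. Points are edgeR estimates from 4 against 4 libraries, bars standard errors, and filled points passed the test. In the TDLN 7 of 9 values in CD4+ and 4 of 9 in CD8+ cells changed sign with Y-linked counts as a term. Filled points are Tnfrsf4, Tnfrsf9, Tnfrsf18 and Tnfrsf1b in CD4+ TILs and Cd40lg and Tnfsf8 in CD8+ TILs, none of which was called with Y-linked counts as a term (when Tnfrsf4 in CD8+ TILs turned negative) or after scaling to T-lineage genes, when Cd27 and Tnfsf14 in CD4+ TILs and Tnfrsf4, Tnfrsf18, Cd27 and Ltb in CD8+ TILs turned negative.

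Whether the genotype difference itself differed between tumor and lymph node was tested as an interaction of tissue and genotype over 16 libraries per population. In CD4+ cells 3 members passed, with 0.205% of all genes called higher. The interaction was 2.36 ± 0.553 for Tnfrsf4 (SE, adjusted p = 0.0457 by edgeR), 2.31 ± 0.501 for Tnfrsf9 (adjusted p = 0.0327) and 2.05 ± 0.481 for Tnfrsf18 (adjusted p = 0.0457). Tnfrsf1b had an interaction of 2.18 ± 0.555 (adjusted p = 0.0606), and the other 5 ranged from 0.61 for Cd40lg to 1.59 for Tnfsf14 with adjusted p of 0.23 or more. The median over the 9 was 1.59, against 0.14 over all genes and 1.13 over the T-lineage genes. Scaled to the T-lineage genes none was called, with Tnfrsf4 at 1.06 (adjusted p = 0.109 by edgeR) and Tnfrsf9 at 1.04 (adjusted p = 0.119). With Y-linked counts and their product with tissue as terms none was called either, nor was any other gene, with Tnfrsf4 at 1.64, Tnfrsf9 at 1.64 and Tnfrsf18 at 1.36. When 1 library was left out, between 0 and 5 members were called, with Tnfrsf9 called in 5 of 16 fits and Tnfrsf4 and Tnfrsf18 in 4 each. In CD8+ cells 0 members passed by edgeR or DESeq2 (2 at an unadjusted p under 0.05 by edgeR). Over all genes 0.422% were called by edgeR and 719 of 14937 by DESeq2. In CD45+CD4-CD8- cells 0 passed by edgeR and 2 by DESeq2, with 5 at an unadjusted p under 0.05 by edgeR. Over all genes 0% were called by edgeR and 119 of 14871 by DESeq2. An interaction between CD4+ and CD8+ cells was not fitted.

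The second question was how the 9 genes differ between tumor and TDLN. Tissue comparisons called many genes in every population, 37.3% of all tested genes in WT CD4+, 18.5% in Yap-cKO CD4+, 37.7% in WT CD8+, 15.9% in Yap-cKO CD8+, 39.9% in WT CD45+CD4-CD8- and 40.3% in Yap-cKO CD45+CD4-CD8- cells. Members called were 4 of 9, 4 of 9, 4 of 9, 3 of 9, 5 of 8 tested and 6 of 8 tested. For T cells the counts in WT mice are near the background. The CPM of T-lineage genes also fell in T cells of the WT tumor, with 11 of 15 called lower in CD4+ and 13 of 15 in CD8+ TILs. In Yap-cKO mice 1 and 2 of 15 were called lower.

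Tnfrsf9 was the receptor called higher in the tumor in all 6 comparisons. The log2 fold change of Tnfrsf9 was 1.15 ± 0.324 in WT CD4+ (SE, adjusted p = 0.0116 by edgeR), 3.35 ± 0.408 in Yap-cKO CD4+ (adjusted p = 0.00048), 1.69 ± 0.46 in WT CD8+ (adjusted p = 0.0111) and 2.67 ± 0.65 in Yap-cKO CD8+ cells (adjusted p = 0.0157). In CD45+CD4-CD8- cells it was 2.14 in WT and 3.38 in Yap-cKO mice, from 6.72 to 19.9 CPM in the WT TDLN to 56.2 to 68.3 CPM in the WT tumor and from 7.23 to 9.76 to 67.2 to 115 CPM in Yap-cKO mice. The libraries of the 2 tissues did not overlap in these cells.

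Tnfrsf4 was called higher in the tumor in 5 of the 6 comparisons, the exception being WT CD4+ cells, where the level was 151 to 332 CPM in the TDLN and 201 to 530 CPM in TILs (log2 fold change 0.47). In CD8+ cells Tnfrsf4 went from 12.03, 4.47, 17.6 and 3.03 CPM in the WT TDLN to 75.6, 5.63, 54.7 and 64.0 CPM in WT TILs, where replicate 2 alone stayed at the level of the lymph node (log2 fold change 2.51 ± 0.731 SE, adjusted p = 0.0156 by edgeR). In Yap-cKO CD8+ cells the log2 fold change was 3.03 (adjusted p = 0.00408), in Yap-cKO CD4+ cells 2.71 (adjusted p = 0.0019), and in CD45+CD4-CD8- cells 1.76 and 3.39 in WT and Yap-cKO mice. Tnfrsf18 was called higher in Yap-cKO CD4+ cells (log2 fold change 2.57 ± 0.326 SE, adjusted p = 0.000573), from 121 to 235 CPM to 927 to 1552 CPM, and in Yap-cKO CD45+CD4-CD8- cells (1.51, adjusted p = 0.000537). In WT CD4+ cells Tnfrsf18 overlapped between tissues, with a log2 fold change of 0.63. Regulatory T cell genes moved with tissue in Yap-cKO CD4+ cells, where 3 of 4 were called higher (median log2 fold change 2.22) and their sum went from 347 to 698 CPM to 750 to 2548 CPM, with Foxp3 at 43.2 to 158 and 403 to 602 CPM. In WT CD4+ cells their median was -0.13. Their part in the values of Tnfrsf4, Tnfrsf9 and Tnfrsf18 was not tested.

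Tnfrsf1b and Cd27 were lower in the tumor in T cells of WT mice on the TMM scale. Tnfrsf1b was at 930, 612, 865 and 356 CPM in CD4+ cells of the WT TDLN and 88.0, 244, 414 and 217 CPM in TILs (log2 fold change -1.44 ± 0.426 SE, adjusted p = 0.0153 by edgeR), and in WT CD8+ cells the log2 fold change was -2.46 ± 0.595 (adjusted p = 0.00599). Cd27 was at 276 to 390 CPM and 53.9 to 165 CPM in WT CD4+ cells, with no overlap (log2 fold change -1.64 ± 0.31 SE, adjusted p = 0.00109), and had a log2 fold change of -1.21 in WT CD8+ cells (adjusted p = 0.0119). Neither gene was called in T cells of Yap-cKO mice. These lower values moved with the T-lineage genes. Scaled to them, Tnfrsf1b and Cd27 were not called in either WT T cell population and Cd27 turned to 0.31 in WT and 0.18 in Yap-cKO CD8+ cells, while Tnfrsf4, Tnfrsf9, Tnfrsf18 and Tnfsf14 were called higher in the tumor in all 4 T cell comparisons. That scaling moved the median of all genes to 1.62 in WT CD4+, 1.73 in WT CD8+, 0.23 in Yap-cKO CD4+ and 0.47 in Yap-cKO CD8+ cells, and the split of calls over all genes in WT CD4+ cells moved from 3203 higher and 2024 lower to 8054 and 106. In WT CD8+ cells the split moved from 3121 and 2114 to 8799 and 93, in Yap-cKO CD4+ cells from 1684 and 823 to 2353 and 413, and in Yap-cKO CD8+ cells from 1456 and 669 to 2318 and 181. Beside those medians, the log2 fold changes of Tnfrsf9 on that scale were 2.67, 3.27, 3.71 and 3.26 in the same order. The median over the members was 1.02 in WT CD4+ and 1.09 in WT CD8+ cells, below the medians of all genes there. In Yap-cKO CD4+ and CD8+ cells it was 1.21 and 1.25, above them. Most tested genes were called higher in WT T cells on that scale, 8054 of 14009 in CD4+ and 8799 of 13894 in CD8+ cells. The member calls in WT T cells are not above that background.

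Among the ligands, Tnfsf14 was called higher in the tumor in 4 of 6 comparisons. In CD45+CD4-CD8- cells it went from 1.51, 0.594, 1.15 and 4.63 CPM to 17.8, 12.01, 18.4 and 18.3 CPM in WT mice (log2 fold change 3.06 ± 0.553 SE, adjusted p = 0.00118 by edgeR) and from 0.346 to 0.793 CPM to 12.7 to 26.1 CPM in Yap-cKO mice (5.25 ± 0.366 SE, adjusted p = 7.63e-07). In T cells Tnfsf14 was called in Yap-cKO mice, with log2 fold changes of 2.69 in CD4+ and 2.87 in CD8+ cells, at levels of at most 9.87 CPM. Ltb was lower in the tumor in CD45+CD4-CD8- cells of both genotypes, from 523 to 810 CPM to 106 to 154 CPM in WT mice (log2 fold change -2.30 ± 0.244 SE, adjusted p = 6.87e-05) and from 376 to 722 CPM to 45.4 to 96.1 CPM in Yap-cKO mice (-2.89, adjusted p = 8.15e-06). B cell genes fell in the same libraries, with 6 of 6 called lower in both genotypes and a summed level of 6859 to 8676 CPM in the WT TDLN against 822 to 1661 CPM in the WT tumor. Macrophage and monocyte genes summed to 202 to 3952 CPM in the WT TDLN and 22184 to 33853 CPM in the WT tumor, and the part of either list in the values of Tnfsf14 and Ltb was not tested. Tnfsf8 was lower in the tumor in WT CD4+ cells (41.1 to 71.1 against 12.2 to 37.6 CPM, log2 fold change -1.02, adjusted p = 0.0288), but stood at 0.26 when scaled to T-lineage genes (0.46 in WT CD8+ cells, also from a negative value), and it was higher in CD45+CD4-CD8- cells, at 0.529 to 1.52 CPM in the TDLN and 1.78 to 4.82 CPM in the tumor over both genotypes. Cd40lg passed the test in no tissue comparison (adjusted p = 0.0546 in WT CD4+ cells, log2 fold change -1.09). Scaled to T-lineage genes its values in WT mice turned to 0.14 in CD4+ and 1.18 in CD8+ cells, and those of Ltb to 1.02 and 0.47.

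**Figure D3:**
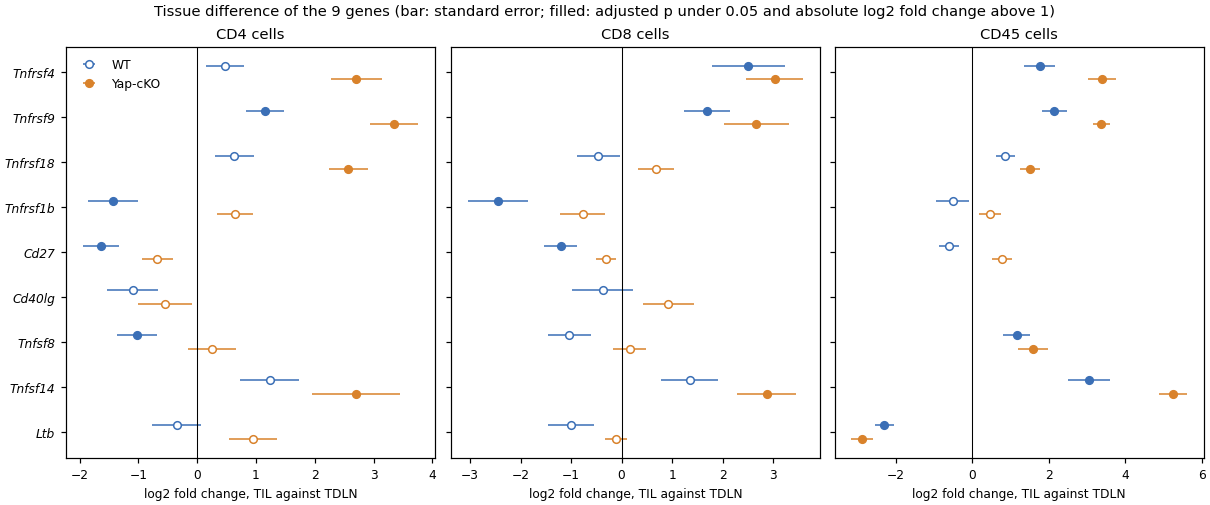
Log2 fold change of the 9 genes between tumor and TDLN in WT and Yap-cKO mice, with CD4+, CD8+ and CD45+CD4-CD8- cells in separate panels; points are edgeR estimates from 4 against 4 libraries, bars standard errors, and filled points passed the test. Tnfrsf9 is filled on the right in all 6 comparisons, Ltb is filled on the left in CD45+CD4-CD8- cells, and when scaled to T-lineage genes the values on the left turned positive for Cd40lg, Tnfsf8 and Ltb in WT CD4+ cells, for Tnfrsf18, Cd27, Cd40lg, Tnfsf8 and Ltb in WT CD8+ cells and for Cd27 and Ltb in Yap-cKO CD8+ cells.

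CD4+ and CD8+ cells were then compared within each tissue and genotype. Cd40lg was called higher in CD4+ cells in all 4 comparisons, where 2.16% of all genes were called higher in the WT TDLN, 1.2% in the Yap-cKO TDLN, 0.0491% in WT TILs and 1.36% in Yap-cKO TILs. Its log2 fold change was 6.17 ± 0.53 in the WT TDLN (SE, adjusted p = 0.000202 by edgeR), from 0.573 to 2.98 CPM in CD8+ to 69.4 to 155 CPM in CD4+ cells. It was 5.66 in the Yap-cKO TDLN (adjusted p = 0.000597), 5.45 in WT TILs (adjusted p = 0.00878) and 4.23 in Yap-cKO TILs (adjusted p = 0.0023), and these values come from separate libraries and were not tested against each other. Without WT CD8+ TIL replicate 4 the call in WT TILs was lost (adjusted p = 0.0582), leaving 0 members called.

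Tnfrsf4 was called higher in CD4+ cells in 3 of the 4 comparisons, with log2 fold changes of 4.81 ± 0.57 in the WT TDLN (SE, adjusted p = 0.00108 by edgeR), 4.32 in the Yap-cKO TDLN (adjusted p = 0.00168) and 4.07 in Yap-cKO TILs (adjusted p = 0.00377). In WT TILs Tnfrsf4 was at 201 to 530 CPM in CD4+ and 5.63 to 75.6 CPM in CD8+ cells without overlap, but did not pass the test (log2 fold change 2.74, adjusted p = 0.232). Tnfrsf18 separated CD4+ from CD8+ cells only in Yap-cKO TILs among the calls, at 927 to 1552 against 206 to 302 CPM (log2 fold change 2.14 ± 0.271 SE, adjusted p = 0.00352 by edgeR), and in the TDLN it overlapped between the populations in both genotypes. Tnfrsf9 was called in the WT TDLN alone, at 85.2 to 214 against 37.8 to 67.4 CPM (log2 fold change 1.57, adjusted p = 0.0138). In all, 3 members were called in the WT TDLN, 2 in the Yap-cKO TDLN, 1 in WT TILs and 3 in Yap-cKO TILs, and none was called higher in CD8+ cells, where the share of all genes was 1.6%, 1.3%, 0.0701% and 1.13% in the same order.

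The deposited values are per transcript, which allowed the share of each gene's TPM to be followed by annotated transcript, as a description with no test. Cd40lg, Tnfsf8 and Tnfsf14 have 1 annotated transcript each. For Ltb, transcript Ltb-201 held 92.6 to 97.5% of the TPM of the gene over the groups, for Tnfrsf1b, Tnfrsf1b-201 held 97.7 to 99.5%, and for Tnfrsf4, Tnfrsf4-201 held 60.1 to 87.0%. In Cd27 the retained-intron transcript Cd27-206 held 20.2 to 49.1%. Salmon divides reads between overlapping transcripts by a model, so these shares are estimates.

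Tnfrsf18 and Tnfrsf9 differed in transcript share between tissues. Tnfrsf18-202, which starts at chr4:156026164, upstream of Tnfrsf18-206 (156026332) and of Tnfrsf18-201 and Tnfrsf18-203 (156026342), held 53.4, 65.8, 59.1 and 46.9% of Tnfrsf18 TPM in CD4+ cells of the WT TDLN and 82.9, 81.7, 81.6 and 78.0% in WT CD4+ TILs. In Yap-cKO CD4+ cells the shares were 58.7, 55.5, 40.5 and 45.1% in the TDLN and 69.5, 76.3, 83.1 and 81.5% in TILs. In CD8+ cells they ran from 42.3 to 63.8% and from 76.7 to 82.7% in WT mice and from 41.7 to 60.6% and from 60.8 to 82.3% in Yap-cKO mice. The tissues did not overlap in any of the 4, and the mean of the 4 T cell groups was 54.8% in the TDLN and 77.7% in the tumor. Yap-cKO CD4+ TILs, whose Tnfrsf18-202 level was 1148 ± 122 TPM against 477 TPM in WT, had shares that overlapped those of WT.

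For Tnfrsf9 the upstream start of Tnfrsf9-204 (chr4:150920155) and the downstream start of Tnfrsf9-205 (chr4:150927999) held shares that differed between the tissues in CD4+ cells. Tnfrsf9-204 held 9.59, 15.8, 10.1 and 14.1% of Tnfrsf9 TPM in the WT TDLN and 25.6, 22.6, 17.3 and 16.2% in WT TILs, and 5.16 to 11.6% and 15.5 to 20% in Yap-cKO CD4+ cells. Tnfrsf9-205, whose start follows the kappaB and AP-1 letters printed above, held 53.1 to 61.9% in the WT TDLN and 39.1 to 45.0% in WT TILs, and 54.0 to 62.3% and 38.4 to 46.4% in Yap-cKO CD4+ cells. None of these pairs overlapped. A start farther downstream, that of Tnfrsf9-206 (chr4:150929797), was at 0 to 5.42% in the WT TDLN and 10.3 to 13.5% in WT TILs, without overlap, and at 0 to 23.5% and 10.3 to 15% in Yap-cKO CD4+ cells, with overlap. Tnfrsf9-204 and Tnfrsf9-205 both had higher mean levels in the tumor, at 16.6 and 80.6 TPM in the WT TDLN, 66.1 and 143 TPM in WT TILs and 201 and 472 TPM in Yap-cKO CD4+ TILs, in that order. In CD8+ cells the shares of Tnfrsf9-204 overlapped between tissues in both genotypes (6.45 to 23.8 against 19.2 to 37.3% in WT, 5.86 to 15.5 against 9.57 to 30.8% in Yap-cKO mice). In WT CD8+ cells those of Tnfrsf9-205 (46.2 to 58.8 against 23 to 43.2%) and of Tnfrsf9-206 (0 to 9.88 against 11.1 to 15.9%) did not overlap. In Yap-cKO CD8+ cells both overlapped (45 to 64.1 against 33.6 to 51%, and 0 to 8.26 against 7.22 to 16.8%).

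The bases just before the starts of these transcripts are printed because they precede the transcripts whose shares were higher in the tumor, in both T cell populations for Tnfrsf18-202 and without overlap in CD4+ cells alone for Tnfrsf9-204. Neither stretch holds a kappaB, AP-1 or TEAD match.
Tnfrsf9, before Tnfrsf9-204, chr4:150920055-150920154, plus strand: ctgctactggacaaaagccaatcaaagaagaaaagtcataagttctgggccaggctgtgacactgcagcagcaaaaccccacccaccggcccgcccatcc
Tnfrsf18, before Tnfrsf18-202, chr4:156026072-156026163, plus strand: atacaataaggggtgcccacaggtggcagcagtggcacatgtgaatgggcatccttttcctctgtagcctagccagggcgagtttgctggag

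**Figure D4:**
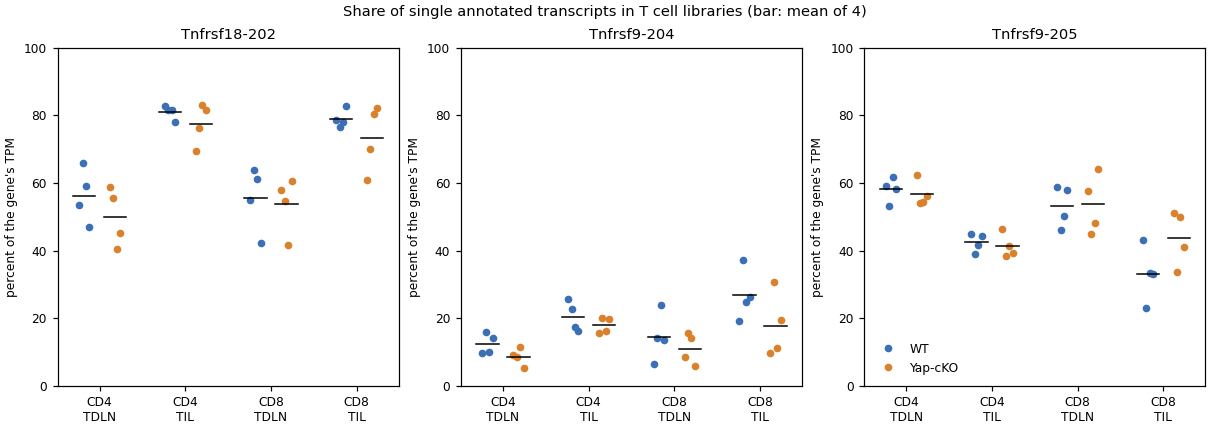
Share of the gene's TPM in percent held by Tnfrsf18-202 and by Tnfrsf9-204 in each T cell library, with TDLN and TIL libraries of each population and genotype side by side; each point is 1 library. The Tnfrsf18-202 share lies at 40.5 to 65.8% in the TDLN and 60.8 to 83.1% in the tumor without overlap within any population, while that of Tnfrsf9-204 overlaps between tissues in CD8+ cells.

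The 10 binding partners of these proteins were followed as well. In the TIL genotype comparisons 1 of 10 tested was called in CD4+ cells, where 8.02% of all genes were called in either direction, and 1 of 9 in CD8+ cells, where 12.2% were. Tnfrsf8, which encodes CD30, the receptor of Tnfsf8, was at 2.05, 6.63, 8.83 and 8.01 CPM in WT libraries against 32.2, 19.97, 28.8 and 19.1 CPM in Yap-cKO CD4+ TILs without overlap (log2 fold change 1.95 ± 0.452 SE, adjusted p = 0.0256 by edgeR). Ltbr, the receptor of LIGHT and lymphotoxin, which is expressed by stromal and myeloid cells rather than by lymphocytes, was at 36.7, 55.2, 19.3 and 37.7 CPM in WT libraries against 0.891, 7.42, 12.2 and 1.93 CPM in Yap-cKO CD8+ TILs (log2 fold change -2.82 ± 0.7 SE, adjusted p = 0.0303). In T cells of the TDLN Ltbr was at or below 0.550 CPM in every library. Melanoma genes moved with Ltbr in the TILs, at the sums given above, as did 8 endothelial genes (71.1 to 1333 CPM in WT and 3.83 to 17.3 CPM in Yap-cKO CD8+ TILs), and their part in its values was not tested.

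Tnfsf9, Tnf and Cd40 had their highest means in CD45+CD4-CD8- cells. Tnfsf9, the ligand of CD137, was at 47.3 to 146 CPM in WT and 108 to 130 CPM in Yap-cKO CD45+CD4-CD8- TILs, and had a mean of at most 28.7 CPM in every T cell group. Tnf, the ligand of TNFR2, was at 108 to 394 and 183 to 487 CPM in the same cells. Cd40, the receptor of CD40 ligand, was at 148 to 290 CPM in CD45+CD4-CD8- cells of the WT TDLN and 114 to 153 CPM in those of the WT tumor, against 1.41 to 7.78 CPM over all T cell libraries. Tnfsf4, the ligand of OX40, had its highest levels in Yap-cKO CD8+ TILs, at 2.20, 34.6, 20.4 and 29.9 CPM, and it was called higher in the tumor than in the TDLN in CD8+ cells of both genotypes (log2 fold changes 3.40 and 4.42). Cd70, the ligand of CD27, was at or below 0.297 CPM in T cells of the TDLN and at 0.237 to 19.2 CPM in T cells of the tumor over both genotypes. Tnfsf18, the ligand of GITR, was at or below 0.0496 CPM in T cells of the TDLN and reached 10.2 CPM in WT CD8+ TILs. The T cell libraries of the tumor also held melanoma, endothelial and macrophage genes, at the sums given above. Their part in the values of Tnfsf4, Cd70 and Tnfsf18 was not tested. Lta fell in the tumor in CD45+CD4-CD8- cells as Ltb did (log2 fold changes -2.99 in WT and -3.31 in Yap-cKO mice), and Tnfrsf14, the receptor of LIGHT, stayed between 3.93 and 16.99 CPM in all 48 libraries.

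**Figure D5:**
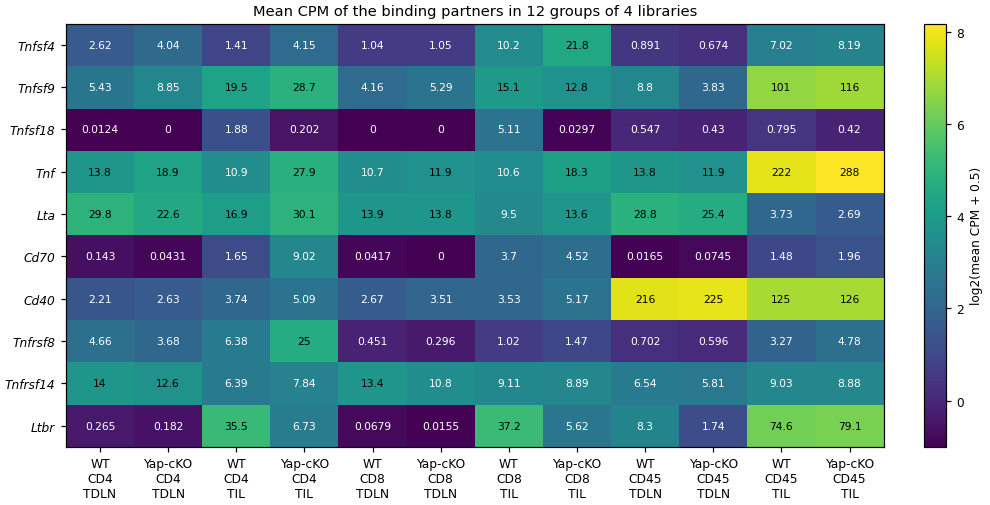
Mean normalized read count of the 10 binding partners in the 12 groups, in CPM on a log color scale. Cd40, Tnf and Tnfsf9 are highest in CD45+CD4-CD8- cells, and Tnfrsf8 rises from a mean of 6.38 CPM in WT to 25.0 CPM in Yap-cKO CD4+ TILs.

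A wider list of 27 other superfamily genes and one of 14 TRAF and NF-kappaB signalling genes were fixed along with the members. In CD4+ TILs 2 of the 20 other superfamily genes tested were called higher and 2 lower in Yap-cKO mice, against 8.02% of all genes called in either direction. The 3 with the smallest p were Tnfrsf13b, which encodes the BAFF and APRIL receptor TACI (log2 fold change 1.30, adjusted p = 0.0319 by edgeR), Tnfsf10, which encodes the death ligand TRAIL (1.61, adjusted p = 0.0377), and Tnfrsf21 (-1.74, adjusted p = 0.0467). In CD8+ TILs 3 of 21 were called higher and 2 lower, against 12.2% of all genes, led by Tnfsf10 (1.32, adjusted p = 0.0216), Tnfrsf11b, which encodes the decoy receptor osteoprotegerin (-3.16, adjusted p = 0.0226), and Tnfrsf12a (-1.87, adjusted p = 0.0233).

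All 14 signalling genes had a positive log2 fold change in CD4+ and in CD8+ TILs, with medians of 0.91 and 0.97 that lay beside those of the T-lineage genes. In CD4+ TILs 0 of 14 were called. In CD8+ TILs 3 were called higher, Cyld, a deubiquitinase that limits NF-kappaB signalling (log2 fold change 1.497, adjusted p = 0.018 by edgeR), the kinase Ripk1 (1.09, adjusted p = 0.0283) and the ubiquitin ligase Birc2 (1.22, adjusted p = 0.0395). Over all genes tested in CD8+ TILs 3.03% were called higher, and in CD45+CD4-CD8- TILs 0.991% were called in either direction. In CD45+CD4-CD8- TILs 1 was called, Tnfaip3, which encodes the inhibitor A20 (1.11, adjusted p = 0.0283), and in the TDLN none was called in any population. Between tissues in WT T cells, 9 of 14 signalling genes were called lower in the tumor in CD4+ and 10 of 14 in CD8+ cells, including Traf3 (-1.34 and -1.68). Of all genes tested, 2024 of 14009 and 2114 of 13894 were called lower, in the same order. In Yap-cKO CD4+ cells 2 were called higher and 0 lower, namely Traf1 (1.68) and Nfkb2 (1.17), and in Yap-cKO CD8+ cells 1 was called lower, Map3k14, which encodes the noncanonical pathway kinase NIK (-1.27). There 18.5% and 15.9% of all tested genes were called in either direction. In WT T cells of the tumor the T-lineage genes were lower too, by medians of -1.30 and -1.63.

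Over the 32 T cell libraries, the genes whose log2(CPM + 0.5) ran closest to each member among 10091 candidates were listed as a description. The libraries share tissue, genotype, T cell content and depth, so the coefficients carry no p. Closest to Tnfrsf4 were Ccr8 (Pearson r = 0.971), a chemokine receptor of tumor regulatory T cells, Ebi3 (0.92) and Dusp14 (0.92). Closest to Tnfrsf18 were Mif4gd (0.968), the AP-1 family factor Batf (0.941) and Sdf4 (0.923), and Sdf4 ends 232 bases before the start of Tnfrsf4. Closest to Tnfrsf9 were Ptger2 (0.931), Tmem158 (0.929) and Impa2 (0.923). Closest to Tnfrsf1b were the NF-kappaB subunit Relb (0.951), Tnip1 (0.945) and H2-K1 (0.945). Closest to Cd40lg were Cd4 (0.966), Tmem154 (0.925) and Foxp3 (0.906). Closest to Ltb were 1600014C10Rik (0.949), Grap (0.946) and Ly6e (0.937), and to Cd27 Sept6 (0.934), A430078G23Rik (0.932) and the adaptor Grap2 (0.926). Tnfsf8 ran with Cd28 (0.894), Dapp1 (0.894) and Tmem156 (0.889), and Tnfsf14 with Syce2 (0.892), Id2 (0.891) and Pglyrp1 (0.889). Among the members themselves the closest pairs were Tnfrsf9 and Tnfrsf18 (0.851), Tnfrsf4 and Tnfrsf9 (0.837) and Tnfrsf1b and Cd27 (0.777), and the lowest coefficients were those of Cd27 with Tnfsf14 (-0.372) and with Tnfrsf9 (-0.327).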

How the data were processed

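The authors deposited, per the labels, 1 table per library with expected counts, TPM and effective lengths per transcript from Salmon 0.9.1 (submitters' processing notes, which also name FastQC and Trimmomatic and the build mm10), after SMART-Seq v4 amplification of sorted-cell RNA. Of 112092 transcripts, 111787 matched GENCODE M21 without version numbers. The others held 0.0488 to 0.18% of expected counts and were left out. Expected counts and TPM were summed per gene, and counts were rounded. Tests used edgeR 4.0.16 in R 4.3.3 (glmQLFit and glmQLFTest, TMM, a gene being kept with 10 or more counts in 4 or more libraries) on all genes in 19 comparisons of the libraries concerned, with DESeq2 1.42.0 as an alternative. Calls needed a log2 fold change beyond 1 in either direction and an adjusted p below 0.05. With 4 against 4 libraries a single exact permutation test cannot go below p = 0.0286. The scripts were tested on simulated counts. Level floors of 3 counts cover counting error only. No pair of the 72 within groups had identical counts, and 0 tables mixed samples. Whether the 4 libraries of a group came from separate mice is not stated in the labels, so p-values measure the spread between these libraries.

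CD4+ and CD8+ TILs were sorted from the same tumors, and deviations of same-numbered CD4+ and CD8+ libraries from their group means correlated in every pair of WT TDLN (0.432 to 0.836), WT TIL (0.116 to 0.752) and Yap-cKO TIL (0.162 to 0.653) libraries. With the replicate number as a block, members called in the comparison of CD4+ and CD8+ cells in Yap-cKO TILs went from 3 to 4, where 612 of all 13902 tested genes were called. The other counts of that kind did not move. The members and lists were chosen with earlier results of these data known. All 9 members and the 10 partners are named. Of the 27 other superfamily genes and 14 signalling genes, up to 3 called genes with the smallest p are named per comparison, and for likeness the 3 genes with the highest r. Alternatives were DESeq2, no count filter, average transcript length offsets, the replicate block, scaling to T-lineage genes, only libraries without Y-linked counts, Y-linked counts as a term (chosen after the data were seen), adjusted p alone, omission of each library, and for levels and transcript shares library-total CPM, summed TPM and shares of expected counts.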

Additional observations from a re-analysis of the deposited data

Results flagged for a closer look

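Of 108 combinations of a member and a group, 7 held a library that stood apart from the other 3 by Dixon's gap-to-range ratio, where chance gives about 1 in 20. Tnfrsf9 was at 972 CPM in Yap-cKO CD8+ TIL replicate 2, with the others at 122 to 230 CPM. Tnfrsf18 was at 1552 CPM in Yap-cKO CD4+ TIL replicate 3 (others 927 to 1005 CPM), and Ltb at 1894 CPM in that same library (others 727 to 903 CPM). Ltb was at 1134 CPM in WT CD4+ TDLN replicate 2 (others 430 to 523 CPM). On the low side stood Cd27 at 276 CPM in WT CD4+ TDLN replicate 4 (others 373 to 390 CPM), Cd40lg at 0.320 CPM in WT CD8+ TIL replicate 1 (others 1.32 to 1.497 CPM) and Tnfsf14 at 12.01 CPM in WT CD45+CD4-CD8- TIL replicate 2 (others 17.8 to 18.4 CPM).

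The genotype difference in CD4+ cells differed between tumor and TDLN for 3 genes by the interaction test. Its log2 size was 2.36 for Tnfrsf4, 2.31 for Tnfrsf9 and 2.05 for Tnfrsf18.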

How the results depend on the processing

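For members called in a comparison, and every member tested between genotypes in TILs, 892 values were recomputed: 762 kept their direction and side of the threshold, 115 lost and 3 gained the call, and 12 reversed. Over all tested members, including those not called, T-lineage scaling changed the sign of 28 of 126 values, gained 8 calls and lost 14, and DESeq2 gained 9 of 167 and lost 0. With Y-linked counts as a term 19 of 79 values changed sign, and in only the libraries without them 12 of 50 did. Where a value changed, the cause was not tested. Scaled to T-lineage genes, members called fell to 0 in CD4+ TILs between genotypes, 0 in CD8+ TILs and 0 in the CD4+ interaction. Reversed then were Cd27 at -0.17 and Tnfsf14 at -0.16 in CD4+ TILs, Tnfrsf4 at -0.93, Tnfrsf18 at -0.093, Cd27 at -0.23 and Ltb at -0.15 in CD8+ TILs, and between tissues, among called values, Tnfsf8 at 0.26 in WT CD4+ and Cd27 at 0.31 in WT CD8+ cells. Uncalled values that reversed were Cd40lg at 0.14 and Ltb at 1.02 in WT CD4+, Tnfrsf18 at 1.09, Cd40lg at 1.18, Tnfsf8 at 0.46 and Ltb at 0.47 in WT CD8+, and Cd27 at 0.18 and Ltb at 0.39 in Yap-cKO CD8+ cells. In libraries without Y-linked counts (1 WT against 4) the genotype counts were 0 in CD4+ and 0 in CD8+ TILs, where 0 and 1 of all genes were called, so little could have passed, and Tnfrsf4 stood at -0.11 in CD8+ TILs. With Y-linked counts as a term, chosen after the data were seen, members called were 0 in CD4+ TILs, 0 in CD8+ TILs (Tnfrsf4 at -0.12), 0 in the CD4+ interaction and 1 in CD45+CD4-CD8- cells of the TDLN (Tnfsf14, log2 fold change -3.04). Tnfrsf4 in CD8+ TILs ran from -0.16 to 0.54 with 1 library left out.

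Same-numbered libraries correlated over 0.1 in every pair in 3 of 4 comparisons of CD4+ and CD8+ cells (Yap-cKO TDLN replicate 4 was at -0.0837) and in no genotype or tissue comparison, although in WT CD4+ cells between tissues 3 of 4 pairs did. With the replicate block the counts were 3 for CD4+ TILs between genotypes, 0 for CD8+ TILs, 1 for the CD4+ interaction, 6 for WT CD4+ and 2 for Yap-cKO CD8+ cells between tissues, and 4 for CD4+ against CD8+ Yap-cKO TILs. Over all genes the block called, in the same order, 767 of 14205, 1 of 14121, 132 of 15087, 5476 of 14009, 1698 of 13347 and 612 of 13902. In CD8+ TILs little could therefore have passed. DESeq2 called 2 in CD4+ against CD8+ WT TILs, 2 in the CD45+CD4-CD8- interaction and 6 in WT CD8+ cells between tissues. Over all genes it called 149 of 14266, 119 of 14871 and 5391 of 13894, in the same order.

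With 1 library left out, members called ranged from 0 to 5 (CD4+ TILs between genotypes), 0 to 4 (CD8+ TILs) and 0 to 5 (CD4+ interaction). Between tissues the ranges were 3 to 5 in WT CD4+, 3 to 4 in Yap-cKO CD4+, 4 to 5 in WT CD8+, 2 to 4 in Yap-cKO CD8+ and 4 to 5 in WT CD45+CD4-CD8- cells, with 6 throughout in Yap-cKO CD45+CD4-CD8- cells. Between CD4+ and CD8+ cells they were 2 to 4 in the WT TDLN, 2 in the Yap-cKO TDLN, 0 to 1 in WT TILs and 3 to 4 in Yap-cKO TILs. The other comparisons stayed at 0. As shares of expected counts, Tnfrsf18-202 held 59.8% in the TDLN and 81.2% in TILs, and Tnfrsf9-204 held 28.2% in TILs. Neighbouring groups without overlap numbered 11, or 12 with library-total CPM and 10 with summed TPM. Genes near the floor, such as Cd40lg outside CD4+ cells, are limited by depth.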
